A study of Rattus norvegicus with 4 samples.

Results

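The mammary gland of virgin rats 3 weeks after a carcinogen was compared with the gland of untreated virgin rats. The comparison used 2 of the 4 arrays of the study, chosen by their titles, each array standing for a group of 5 rats. Both virgin arrays gave a value for 19638 of 20500 features, and after a filter on dim features 5821 named genes could be compared. Every animal was a Lewis rat, an inbred strain, and no transgene or engineered allele was named for any group. The untreated virgin rats were age-matched to rats that had borne young, received nothing and were killed at 136 days of age. The other virgin rats received N-methyl-N-nitrosourea (MNU) once at that age, at 50 mg/kg into the peritoneal cavity, and were killed at 157 days. The MNU rats were thus 3 weeks older, and MNU and age cannot be told apart. A vehicle-injected group is not described. The remaining arrays were a parous pair, used here only beside the virgin values: parous rats gave birth at 87 days, nursed for 21 days, lost their litters at 108 days and were examined after 28 days of involution, or 3 weeks after the same MNU dose. The sources used here do not say if each array held pooled RNA of its 5 animals. With 1 array a group, no difference within the virgin pair has a replicate check or a p-value.

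MNU is a direct-acting alkylating agent that methylates DNA bases without needing activation by the liver, and in rats it is a standard inducer of mammary carcinoma. The virgin rat gland is a tree of ducts, with luminal cells that face the lumen and contractile basal cells around them, set in a fat pad of adipocytes, fibroblasts, vessels and immune cells. Fat cells of the pad make and store triglyceride, while the epithelium responds to oestrogen, progesterone and prolactin with cycles of division. The arrays measured whole-gland RNA, so fewer cells of a type and less RNA per cell cannot be told apart in any value below.

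Deposited intensities had medians of 238 units on the virgin array, 221 on the virgin MNU array, 226 on the parous array and 179 on the parous MNU array. Blanks numbered 390, 666, 421 and 795 on them in that order. Blanks were more frequent among bright features. Of the 1002 brightest 5% on the virgin array, 168 (16.8%) were blank on the virgin MNU array. Of the 10030 below the median, 92 (0.917%) were. In the other direction 31 of 991 of the brightest on the virgin MNU array (3.13%) were blank on the virgin array. Markers of gland tissue were present before scaling. Epcam, an adhesion protein of epithelium, read 7430 units on the virgin array and 5510 on the virgin MNU array, and Krt14, a keratin of basal cells, read 1270 and 1230. Pparg, the master regulator of fat cells, read 2010 and 1930. The fat cell marker Fabp4 read 13200 units and the collagen gene Col1a2 21700 on the virgin array, and both were blank on both MNU arrays, while Adipoq and Lpl were blank on all 4. Krt8, Krt18, Col1a1, Ccnd1 and Egfr had no feature named so.

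The comparison asked what the virgin gland expressed differently after MNU. Arrays were put on one scale by quantile normalization, values below 176.9 units (the 40th percentile) were set to that floor, and a feature counted as measured if at least 1 of the 4 arrays exceeded 214.9 units (the 50th percentile). Differences are given as log2 of the virgin MNU value minus log2 of the virgin value, so 1 is a doubling. They were narrow: the median over 5821 genes was 0.00, the robust SD 0.19, and the 1st and 99th percentiles were -0.58 and 0.69. At least 2-fold higher after MNU were 17 genes, 0.292% of those measured, and at least 2-fold lower were 6 genes, 0.103%. Without scaling between the arrays these counts were 14 and 9. The higher genes were mostly of lipid synthesis (Elovl6, Thrsp, Pc, Gpd1 and Acly) and of cell division (Cdk1, Stmn1, Cks2, Ube2c, Mki67, Cdkn3 and Uhrf1). Of these, Uhrf1 passed the filter through the virgin MNU array alone, so it had to be higher there. The 6 lower genes were Or4c52, Ccn2, Nnat, Gnb5, Kazn and Dbp. At 1.5-fold, 79 genes were higher (1.36%) and 54 lower (0.928%). In the parous pair, only 5 of 5792 genes (0.0863%) differed 2-fold.

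**Figure D1:**
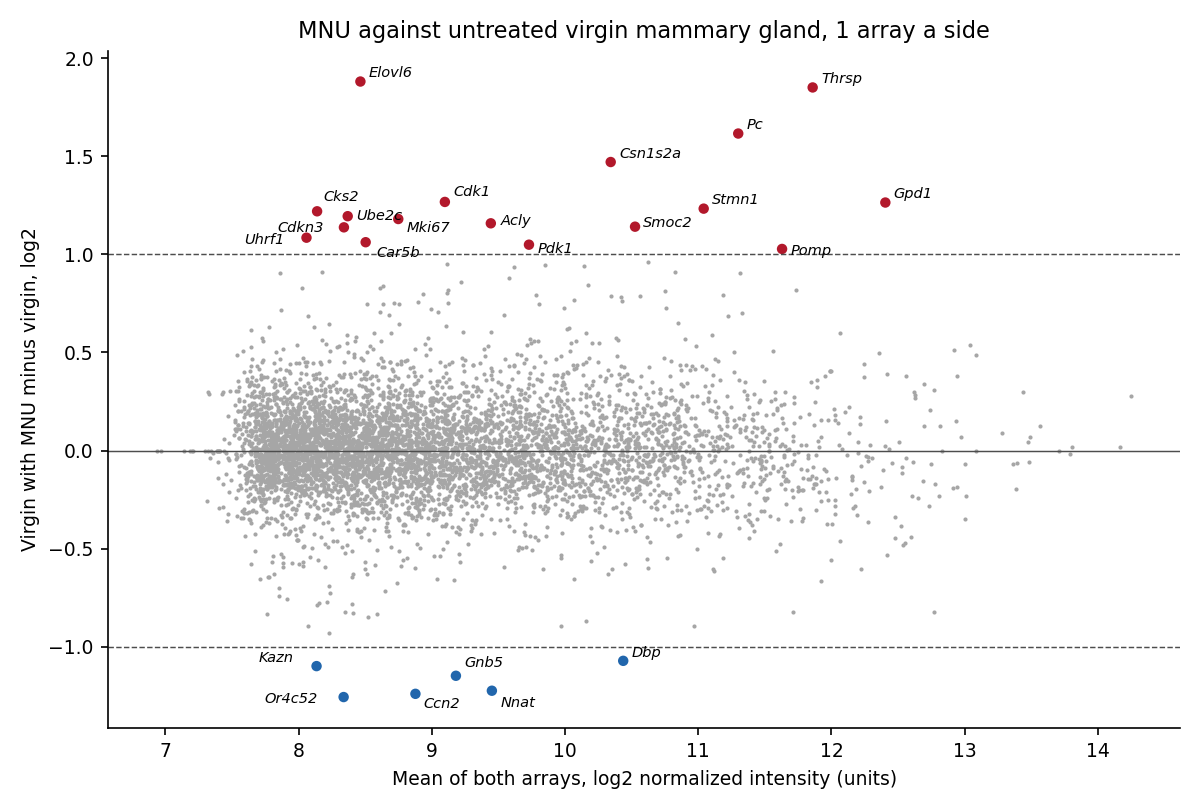
Each point is 1 of 5821 genes, with the mean log2 normalized intensity of both virgin arrays on the horizontal axis and the log2 difference, virgin with MNU minus virgin, on the vertical axis. Dashed lines mark 2-fold; the 17 genes above them are in red and the 6 below in blue, and most grey points lie within 0.5 of the line at 0.

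Genes just inside and just outside the 2-fold line differed little from each other. Pomp, a maturation factor of the proteasome, stood at 1.03 (2219 against 4525 units) and Pdk1, a kinase that switches off pyruvate dehydrogenase, at 1.05 (590.1 against 1222). On the other side of the line were Pxmp2, a peroxisomal membrane protein, at 0.96, and Mrap, an accessory protein of the corticotropin receptor that fat cells also express, at 0.95. The lower genes ran from Dbp at -1.07 to Or4c52 at -1.26, and the nearest gene outside was Gpr182 at -0.93.

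For 54 lists of pathways and cell types the measured members are described below by their number, median and direction, beside the same values for all genes, of which 50.9% lay above 0 and 48.8% below. A member that passes the filter through 1 bright array alone must differ on it. Among list members 10 passed through the virgin MNU array alone, namely Lipe, Prim2, Tk1, Uhrf1, Cenpf, Racgap1, Mycn, Exo1, Fcer1a and Ckm, and 4 through the virgin array alone, namely Rrm2, Cd8a, Nefm and Fgb. Their differences support nothing. The median without the filter is given for fatty acid synthesis, mitosis and the clock, where it was far from the main one. The plot of list medians shows fatty acid synthesis, mitosis and DNA replication highest and the immediate early, acute phase and circadian lists lowest.

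**Figure D2:**
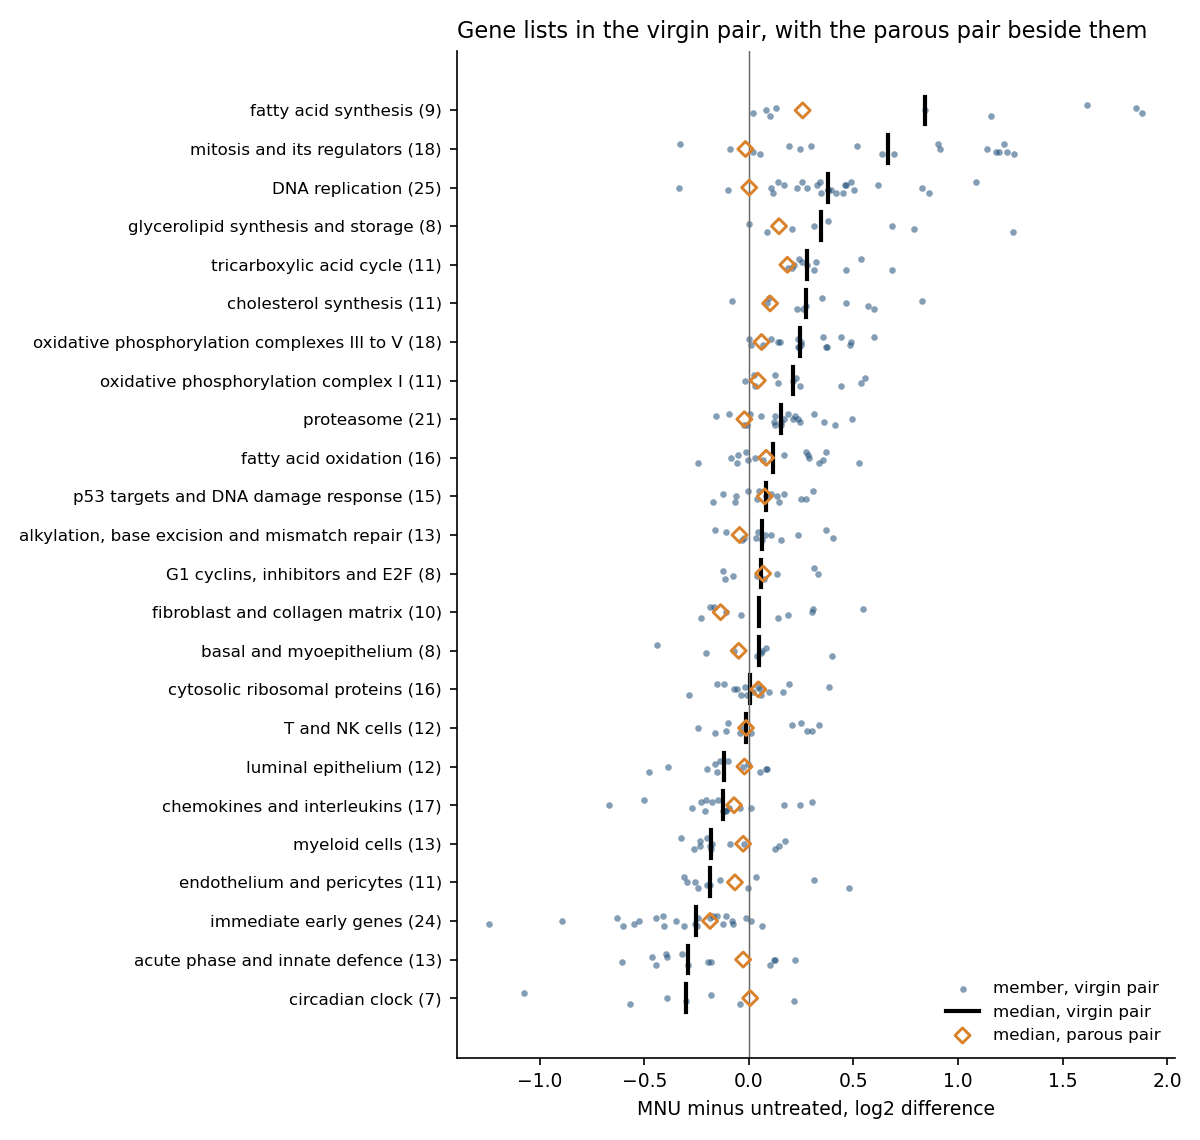
Log2 differences, MNU minus untreated, for 24 of the gene lists, with the number of measured members in brackets. Blue points are members in the virgin pair, black bars their medians and orange diamonds the medians in the parous pair; the black bars run from 0.84 for fatty acid synthesis to -0.30 for the circadian clock.

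Fatty acid synthesis had the highest median of the lists. Its 9 measured members had a median of 0.84, all 9 lay above 0, and 4 were at least 2-fold higher. Elovl6, which elongates palmitate to stearate, read 184 units on the virgin array and 678 on the virgin MNU array, 3.69-fold higher and the largest difference of any gene. The virgin value lay just above the floor. Thrsp, a small nuclear protein that promotes lipogenesis and is known as Spot14, read 1956 and 7060.1 units, a difference of 1.85. Pc, pyruvate carboxylase, which supplies oxaloacetate for the export of citrate, read 1440.4 and 4418 units, 3.07-fold higher. Acly, which splits that citrate into acetyl-CoA in the cytosol, read 466 and 1040.5 units, 2.23-fold higher. Scd2, a desaturase that makes oleate from stearate, read 861 and 1543 units, a difference of 0.84.

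The other members of that list stood close to 0. These were Pmvk at 0.13, a kinase of the mevalonate pathway rather than of fatty acid synthesis, Mlxipl at 0.10, the carbohydrate-responsive transcription factor ChREBP, Acsl1 at 0.08, which activates fatty acids, and Acss2 at 0.02, which makes acetyl-CoA from acetate. Fasn, the fatty acid synthase itself, read 6690 deposited units on the virgin array and was blank on the virgin MNU array. Acaca, the carboxylase that commits carbon to the pathway, was blank on the virgin array and read 493 on the virgin MNU array. Neither gives a difference. Of 20 listed genes, 4 had no feature, 3 were blank on a virgin array, 3 were too dim and 1 was blank on all arrays. With dim members included the list median was 0.12.

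Genes that store fatty acids as triglyceride were higher by less. The glycerolipid list had 8 measured members, all at or above 0, with a median of 0.34. Gpd1, which makes the glycerol phosphate backbone, read 3499 units on the virgin array and 8408 on the virgin MNU array, 2.4-fold higher. Dgat1 and Dgat2 encode the enzymes of the last step of triglyceride synthesis. Dgat1 read 1149.8 and 1988 units, 0.79 on the log2 scale, and Dgat2 1888 and 3035, 0.68, while the other feature of Dgat2 stood at -0.13. Coat proteins of the lipid droplet differed less, with Plin5 at 0.38, Cidec at 0.20, and Plin2 at 0.00.

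Other fat cell genes did not follow as a block. Slc2a4, the insulin-responsive glucose transporter GLUT4, read 993 and 1713 units, a difference of 0.79. Yet Pparg stood at 0.04 and Lep, the gene of leptin, at 0.06, and the 7 measured fat cell hormones and regulators had a median of 0.04. Lipolysis genes had a median of 0.02, from Npr1, a natriuretic peptide receptor, at -0.49 to Mgll, monoglyceride lipase, at 0.79, whose other feature stood at 0.21. In fatty acid uptake the median was 0.24, led by Fabp5, a fatty acid binding protein, at 0.52 and Gpihbp1, the capillary anchor of lipoprotein lipase, at 0.48. Ucp1, the uncoupling protein of brown fat, stood at 0.19.

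Nnat, neuronatin, an imprinted gene expressed in fat and nerve, was among the 6 genes at least 2-fold lower, with 1071 units on the virgin array and 458 on the virgin MNU array. In rodents Mest and Dlk1 are imprinted genes too, the first associated with growth of fat cells and the second an inhibitor of their differentiation. Chosen after their values were seen, Mest read 1542 and 844 units, a difference of -0.87, and Dlk1 286 and 196, a difference of -0.54. These 3 genes were also lower in the parous pair, at -0.61, -0.46 and -0.64. Imprinted genes were not all lower in the virgin pair. Igf2 stood at 0.31 and Igf2r at 0.44 there, and Grb10 at -0.14.

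Cholesterol synthesis genes, which share their sterol-responsive regulation with lipogenesis, had a median of 0.27 with 10 of 11 measured members above 0 and none at 2-fold. Sqle, squalene epoxidase, read 195 units on the virgin array and 347 on the virgin MNU array, a difference of 0.83. Idi1, the isomerase of the isoprene unit, stood at 0.60 and Fdps, which makes farnesyl diphosphate, at 0.57. Insig1, the sterol sensor, was below the floor on the virgin array and at 244 units after MNU, at least 1.38-fold higher. Insig2 was the exception at -0.08.

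**Figure D3:**
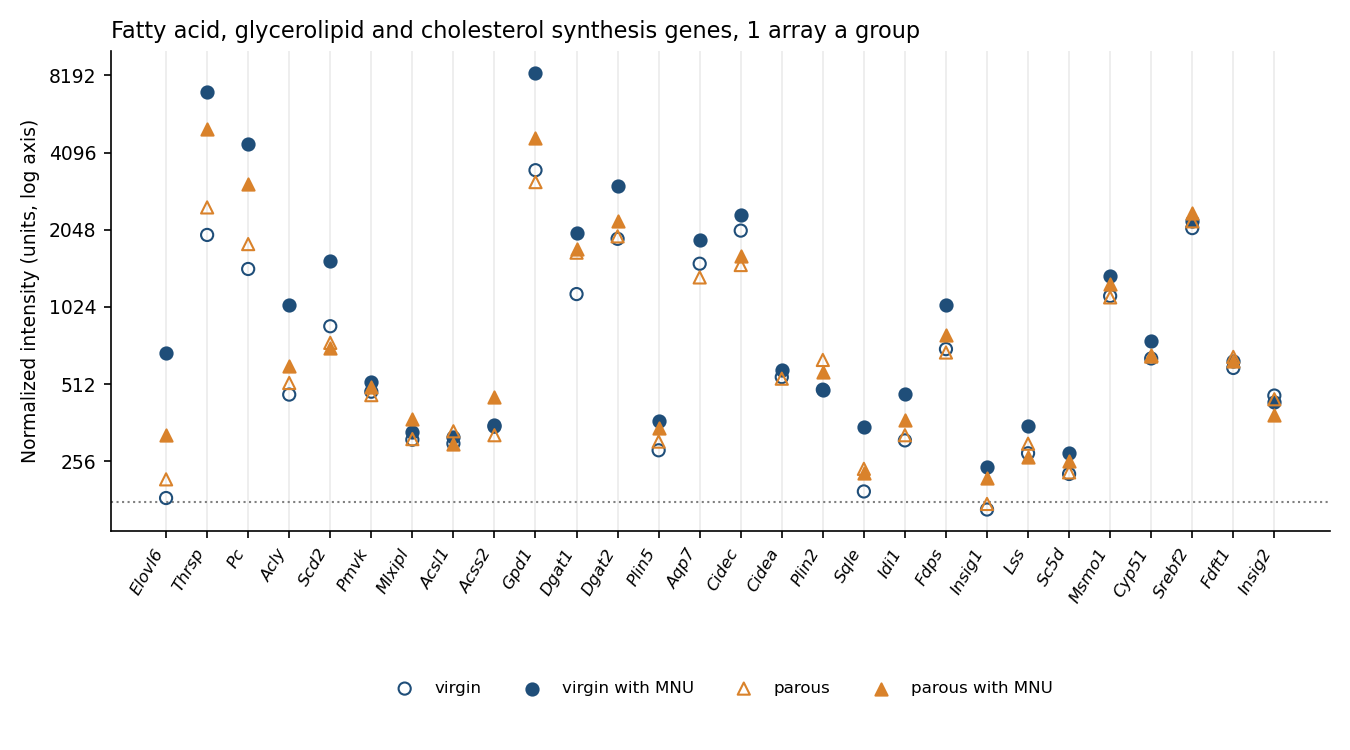
Normalized intensity in units (log axis) of genes of fatty acid synthesis (left), glycerolipid storage (middle) and cholesterol synthesis (right) on each of the 4 arrays; filled symbols are MNU arrays, circles virgin, triangles parous, and the dotted line is the floor. The filled circle lies furthest above the open circle for Elovl6, Thrsp and Pc, with the filled triangle between them.

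Carbohydrate and mitochondrial energy genes leaned upward by small amounts. All 11 measured members of the tricarboxylic acid cycle list were above 0, with a median of 0.28. Dlat and Pdha1, subunits of the pyruvate dehydrogenase complex, stood at 0.69 and 0.53, and Cs, citrate synthase, at 0.47. Pdk1, which phosphorylates and inhibits that complex, was at least 2-fold higher as well. Car5b, a mitochondrial carbonic anhydrase, read 251 and 525 units, 2.09-fold higher, with its other feature at 0.74.

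Respiratory chain genes had medians of 0.21 for complex I, with 10 of 11 above 0, and 0.24 for complexes III to V, with 18 of 18 above 0 and none at 2-fold. Atp5mc3, a subunit of the ATP synthase ring, read 928 and 1406 units, a difference of 0.60, and Ndufs8 of complex I stood at 0.56. Fatty acid oxidation was less uniform, with 10 of 16 above 0 and a median of 0.12; Slc25a20, the carnitine carrier, was highest at 0.53. Glycolysis had a median of 0.17 with 8 of 12 above 0, led by Pgk1 at 0.51, phosphoglycerate kinase, while Ldha, Aldoa, Tpi1 and Pgam1 were blank on a virgin array.

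Genes of cell division formed the other main group. Of 18 measured genes of mitosis, 16 lay above 0, 10 were at least 1.5-fold and 6 at least 2-fold higher, with a median of 0.66. Cdk1, the kinase that drives entry into mitosis, read 353 units on the virgin array and 851 on the virgin MNU array, 2.41-fold higher. Its binding partner Cks2 read 185 and 430.4 units, 2.33-fold higher. Mki67, the gene of the Ki-67 antigen of dividing cells, read 286 and 648 units, 2.27-fold higher. The virgin value of Cks2 lay close to the floor, while those of Mki67 and Cdk1 were clear of it.

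Promoters of 4 of the 6 mitotic genes at 2-fold are shown, chosen because they hold an element common in this list; that of Stmn1 has no TTTGAA, and Ube2c has no entry in the table. The element TTTGAA, known as the CHR and found in promoters of genes that peak before mitosis, and CCAAT, the site of factor NF-Y, were searched on both strands over 250 bases before to 50 after each annotated start. Each line gives the 150 bases before the start in the rat assembly GRCr8 of RefSeq, read 5′ to 3′ along the gene from the reference strain, not from Lewis rats. Capitals mark both elements on either strand, and in Mki67 a copy of each overlaps.
Cdk1, chr20:19265143-19265292, plus strand: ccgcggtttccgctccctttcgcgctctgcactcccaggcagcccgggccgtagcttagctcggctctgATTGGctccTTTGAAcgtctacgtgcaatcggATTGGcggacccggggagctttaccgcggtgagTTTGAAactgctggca
Cks2, chr17:13727520-13727669, minus strand: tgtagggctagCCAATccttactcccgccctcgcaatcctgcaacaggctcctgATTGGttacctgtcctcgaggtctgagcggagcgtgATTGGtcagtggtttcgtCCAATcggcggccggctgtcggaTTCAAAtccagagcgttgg
Mki67, chr1:199952594-199952743, minus strand: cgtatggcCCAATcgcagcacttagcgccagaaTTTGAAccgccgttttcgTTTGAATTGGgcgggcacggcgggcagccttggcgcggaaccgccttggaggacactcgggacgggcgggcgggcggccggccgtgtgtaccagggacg
Cdkn3, chr15:22502236-22502385, plus strand: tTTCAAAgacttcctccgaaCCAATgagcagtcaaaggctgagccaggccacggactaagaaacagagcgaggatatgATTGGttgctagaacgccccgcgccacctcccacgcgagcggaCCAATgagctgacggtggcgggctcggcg

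Among all mitotic genes with a promoter in the table, 24 of 35 (68.6%) held TTTGAA and 30 of 35 (85.7%) held CCAAT. Over all 27457 promoters the shares were 18.1% and 37.7%, and over the 4832 measured genes 10.97% held TTTGAA and 38.1% CCAAT. Of the DNA replication list 1 of 28 (3.57%) held TTTGAA and 17 of 28 CCAAT. Of the fatty acid synthesis list 0 of 14 held TTTGAA and 11 of 14 (78.6%) held CCAAT. A match is a description of the reference sequence and was not a measurement in these glands.

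Further regulators of mitosis read as follows. Ube2c, the ubiquitin-conjugating enzyme of the anaphase-promoting complex, read 219 units on the virgin array and 500.4 on the virgin MNU array, 2.29-fold higher. Cdkn3, a phosphatase that acts on cyclin-dependent kinases, read 219 and 481 units, 2.2-fold higher. Stmn1, stathmin, which destabilizes microtubules, read 1374 and 3232 units, 2.35-fold higher. Below 2-fold came Kif11, a spindle motor, at 0.91, and Pttg1, securin, at 0.69. Birc5, survivin, stood at 0.64 and Plk1, polo-like kinase, at 0.52. Racgap1, needed for cytokinesis, was below the floor on the virgin array and at 331 units after MNU, at least 1.87-fold higher, and it too passed through that array alone.

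Some mitotic genes did not share this difference. Aurkb, the kinase of the chromosomal passenger complex, stood at -0.33, Cdc25b at -0.09, Cdc20 at 0.02 and Bub1 at 0.05. Of the list of 40, 13 had no feature and 9 did not pass the filter. The deposited values of Top2a, the DNA topoisomerase of dividing cells, were 142 units on the virgin array and 142 on the virgin MNU array, and those of Ccnb2, a B-type cyclin, 141 and 219. Of the 18 measured, 2 (Cenpf and Racgap1) passed through the virgin MNU array alone, and with dim members included the median was 0.25.

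DNA replication genes leaned the same way by less. Of 25 measured, 23 lay above 0 and 1 at 2-fold, with a median of 0.38; 3 of the 25 (Prim2, Tk1 and Uhrf1) passed the filter through the virgin MNU array alone and Rrm2 through the virgin array alone. Uhrf1, which recruits the maintenance DNA methyltransferase to replicating DNA, read 183 units on the virgin array and 389 on the virgin MNU array, 2.12-fold higher. It is one of the genes that passed through the virgin MNU array alone, so it had to differ. Mcm5, a subunit of the replicative helicase, read 294 and 522 units, a difference of 0.83. Pcna, the sliding clamp, read 1741 and 2322 units, a difference of 0.42, and Dut, which keeps uracil out of DNA, stood at 0.62. Cdt1, the licensing factor, stood at 0.86 in its brighter feature and -0.26 in the other, whereas Mcm2 stood at 0.11 and 0.61. Rpa1 was lower at -0.10, and Rrm2, the small subunit of ribonucleotide reductase, was below the floor after MNU, at least 1.26-fold lower. Pclaf, a partner of the clamp, was blank on the virgin array and read 1280 deposited units on the virgin MNU array.

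In this list 10 of 28 promoters (35.7%) held an E2F site, searched as TTTGGCGC or TTTCCCGC on both strands, against 1.53% of all promoters and 2.96% of those of measured genes. E2F factors switch on replication genes as cells leave the resting state. The promoter of Mcm5 is shown for its site at the start, in capitals.
Mcm5, chr19:13488663-13488812, plus strand: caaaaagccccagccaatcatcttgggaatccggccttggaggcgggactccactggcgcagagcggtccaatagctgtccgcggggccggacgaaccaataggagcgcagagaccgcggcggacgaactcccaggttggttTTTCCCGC

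Regulators of the decision to divide differed little. Of 8 measured cyclins, inhibitors and E2F genes of that list, 5 lay above 0 with a median of 0.06. Myc stood at -0.07 and Cdkn1b, the inhibitor p27, at -0.13, with its other feature at -0.46. Highest were Mycn at 0.33, which passed the filter through the virgin MNU array alone, and Cdkn2c at 0.31. The virgin difference exceeded the parous difference for 14 of 18 mitotic and 21 of 24 replication genes with both values. The same share over all genes is not given here, so these counts have no background. They include Cenpf, Racgap1, Prim2, Tk1 and Uhrf1, which passed the filter through the virgin MNU array alone, and Rrm2, which passed through the virgin array alone. Parous medians were -0.02 for mitosis and 0.00 for replication. In the parous pair Cdk1 read 380.4 and 372 units, Mki67 368 and 339, and Ube2c 251 and 217. On the untreated virgin array Cdk1 read 353 units and Mki67 286, each below both parous values. Other mitotic genes were also higher on the untreated parous than on the untreated virgin array. Cdkn3 read 296 and 219 units on them, Cks2 231 and 185, and Birc5 548 and 442. Aurkb, Cdc25b and Cdc20 were lower on the untreated parous array. No test of the difference between the pairs was possible with 1 array a group.

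**Figure D4:**
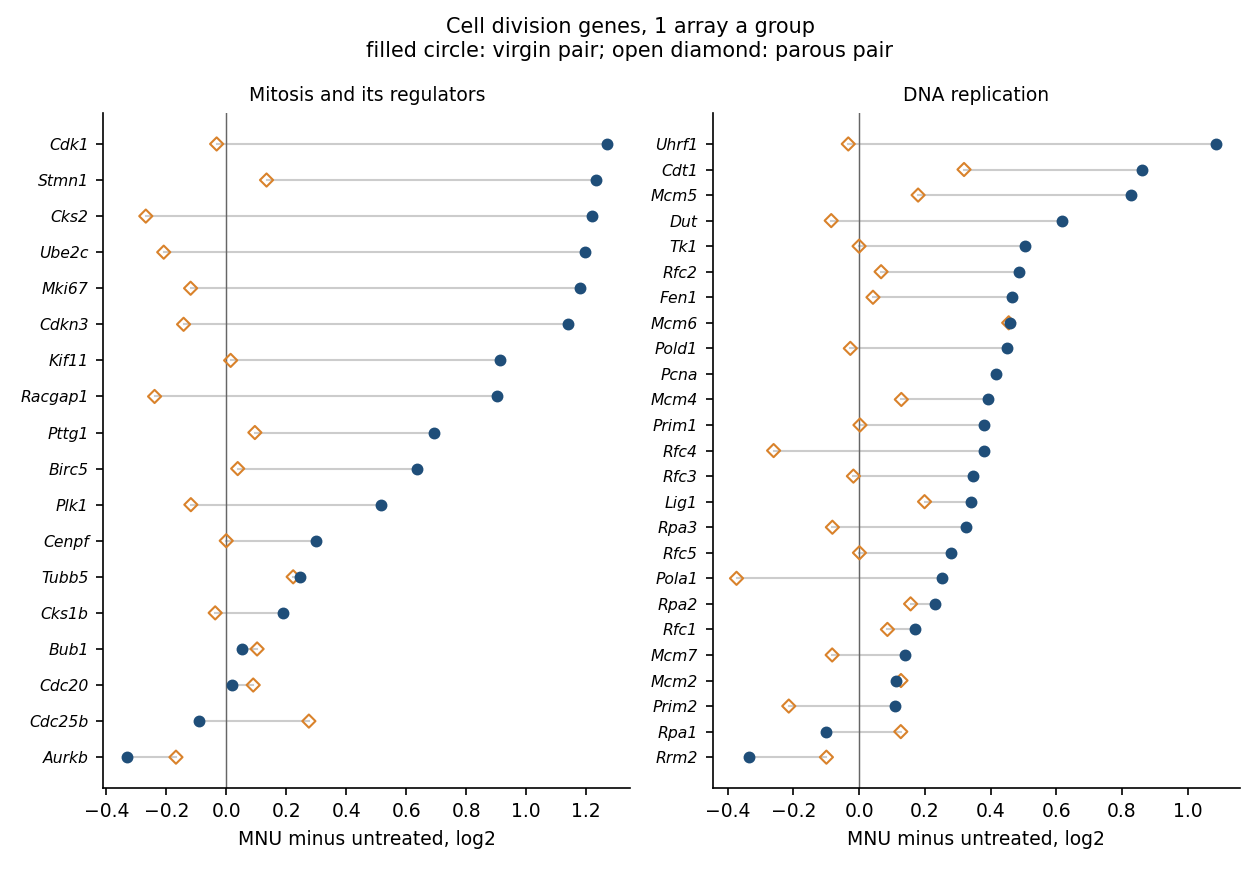
Log2 differences, MNU minus untreated, of 18 mitosis and 25 DNA replication genes; filled circles are the virgin pair, open diamonds the parous pair, and Pcna has no parous value. Most filled circles lie above 0, up to 1.27 for Cdk1, while the diamonds lie on both sides of 0.

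Genes of the response to DNA damage stood near 0 at this time. Of 15 measured p53 targets and damage response genes 10 lay above 0 with a median of 0.08 and none at 1.5-fold. Cdkn1a, the p53-induced inhibitor p21, read 307 units on the virgin array and 337 on the virgin MNU array, a difference of 0.14. Mdm2, which degrades p53, stood at 0.14 and Ccng1 at 0.04. The highest was Bax, which permeabilizes mitochondria in apoptosis, at 0.31, followed by Phlda3 at 0.27.

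The listed repair genes were likewise close to 0, with 9 of 13 above it and a median of 0.06. Mgmt, which removes methyl groups from guanine, the lesion of MNU best known for mutation, read 779 and 761 units, a difference of -0.03. Mpg, the glycosylase of methylated adenine, stood at 0.03, Parp1 at 0.04, and Ogg1, the glycosylase of oxidized guanine, at 0.37. Pms2, of mismatch repair, was below the floor on the virgin array and at least 1.32-fold higher after MNU. Pms1, a mismatch repair gene outside the list, was chosen after its limma result was seen. It was among the 24 genes past the limma test over both pairs that is described below. Its limma adjusted p ran from 0.0182 to 0.609 by setting. Of 15 apoptosis genes the median was 0.01, with Diablo, an antagonist of inhibitors of apoptosis, at 0.75 in the virgin and -0.29 in the parous pair.

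Immediate early genes, which growth factors and stress induce within minutes, were lower on the virgin MNU array. Of 24 measured, 22 lay below 0, with a median of -0.25 and 1 at 2-fold. Ccn2, the matrix protein also called connective tissue growth factor, read 723 units on the virgin array and 306 on the virgin MNU array, 2.36-fold lower. Zfp36, tristetraprolin, which destabilizes cytokine messages, read 1364 and 734 units, a difference of -0.89, with its other feature at -0.37. Jun, a subunit of AP-1, read 2814 and 1923 units, a difference of -0.55. Nfkbia, the inhibitor of NF-kB, stood at -0.60, Junb at -0.53 and Atf3 at -0.41. Egr1 and Nr4a1 were nearer 0 at -0.24 and -0.25. Fosl2 at 0.06 and Mcl1 at 0.01 were the members above 0, and Fos was blank on the virgin array and read 618 deposited units on the virgin MNU array.

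The parous pair had 19 of 24 of these genes below 0 with a median of -0.19, Jun at -0.42 and Ccn2 at -0.43 among them. Both parous and virgin MNU rats were older when killed than the untreated rats, and how glands were dissected is not stated in these sources. The promoter of Zfp36 is shown for its CArG box, the site of serum response factor, in capitals. Of the immediate early promoters 4 of 27 (14.8%) held such a box, against 1.64% of all promoters and 1.47% of those of measured genes.
Zfp36, chr1:92799109-92799258, minus strand: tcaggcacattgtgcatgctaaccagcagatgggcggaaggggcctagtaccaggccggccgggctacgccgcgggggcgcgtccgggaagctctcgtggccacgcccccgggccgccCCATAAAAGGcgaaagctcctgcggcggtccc

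Circadian output genes were lower too. Of 7 measured clock genes, 6 lay below 0 with a median of -0.30, or -0.11 with dim members included. Dbp, a transcription factor whose level swings through the day, read 2011 units on the virgin array and 956 on the virgin MNU array, 2.1-fold lower. Its relative Tef read 720.3 and 486 units, a difference of -0.57. Per2 and Per1, repressors within the clock, stood at -0.39 and -0.30, and Bhlhe40 at 0.22. In the parous pair Dbp read 3016 and 2904 units and the list median was 0.01. The time of day of killing is not stated in these sources.

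Acute phase and innate defence genes had a median of -0.29, with 9 of 13 below 0 and none at 2-fold. Lbp, which presents bacterial lipopolysaccharide, read 5895 units on the virgin array and 3871 on the virgin MNU array, a difference of -0.61. Reg3a and Reg3b, secreted antibacterial lectins, stood at -0.47 and -0.40, and S100a9, a calcium-binding protein of neutrophils, at -0.44. The complement gene C3 at 0.12 and Orm1 at 0.22 were above 0. Among chemokines and interleukins 13 of 17 lay below 0 with a median of -0.12. Il33, a nuclear alarmin of stromal cells, stood at -0.67, although its other feature stood at 0.17, and Ccl11, which attracts eosinophils, at -0.50.

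**Figure D5:**
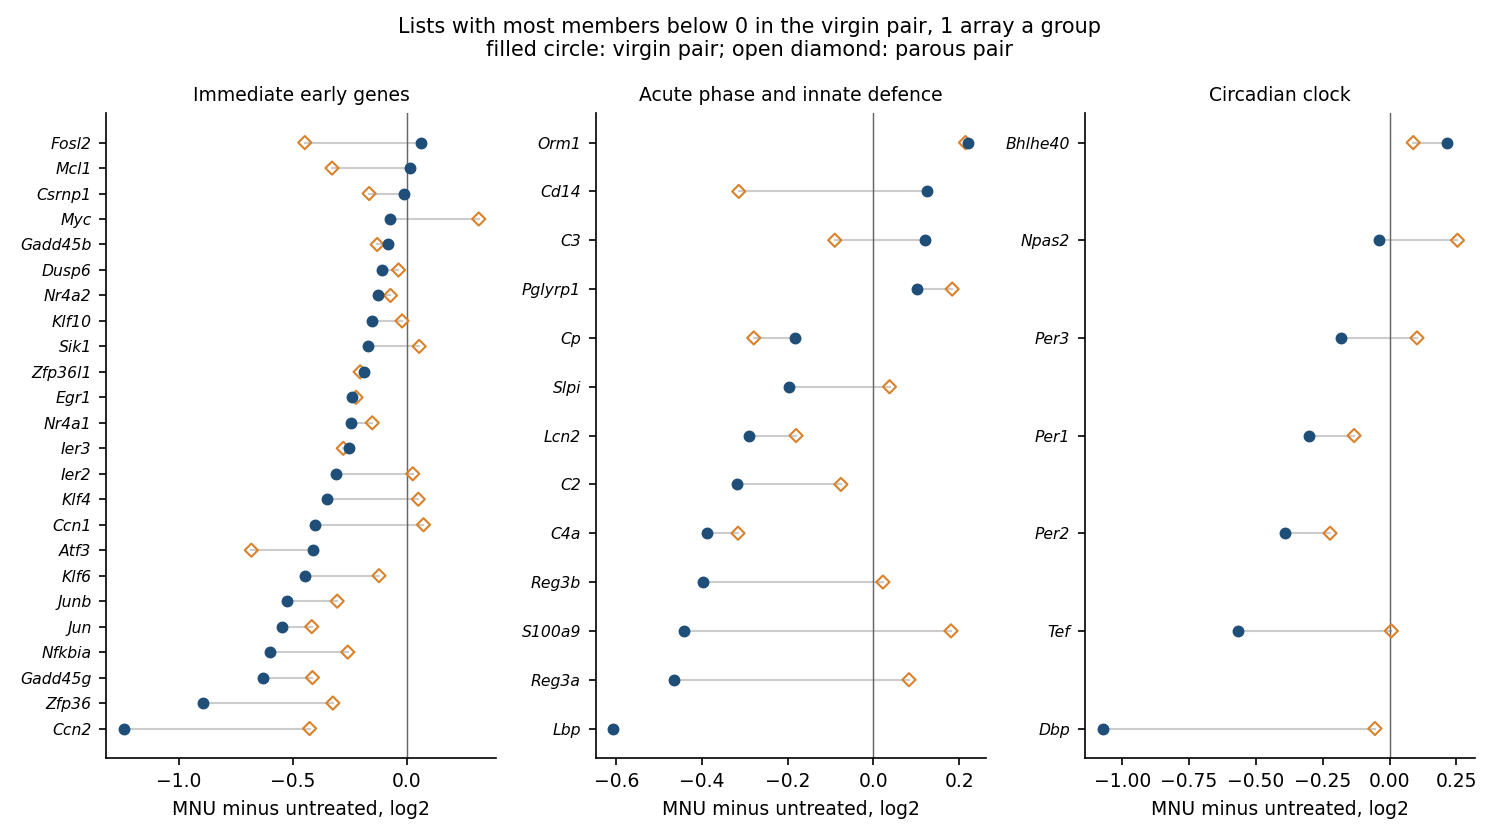
Log2 differences, MNU minus untreated, of the members of 3 lists; filled circles are the virgin pair and open diamonds the parous pair. In the virgin pair 22 of 24 immediate early, 9 of 13 acute phase and 6 of 7 circadian genes lie below 0, with Ccn2 and Dbp furthest out.

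Markers of the cell types of the gland are given because the arrays measured whole tissue, and their part in the results was not tested. Of 12 luminal markers 9 lay below 0, with a median of -0.12, or 0.0086 with quantile normalization over all values. Krt19, a luminal keratin, read 3704 units on the virgin array and 2662 on the virgin MNU array, a difference of -0.48, and Epcam 6711 and 5139, a difference of -0.39. The summed luminal level was 23895 units on the virgin array and 20498 on the virgin MNU array. Of 8 basal markers the median was 0.05, with Krt5 at 0.40 and Krt14 at 0.06, and the contractile protein gene Tagln at -0.44. The other features of Krt5 and Krt14 stood at -0.11 and 0.13. Basal markers summed to 16188 and 14107 units.

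Milk genes were mixed. Csn1s2a, an alpha-S2 casein, read 780.1 units on the virgin array and 2164 on the virgin MNU array, 2.77-fold higher, while in the parous pair it was lower, with 11349 and 7864 units. Wap, whey acidic protein, stood at 0.43 in the virgin and -0.63 in the parous pair. Csn2, beta-casein, stood at 0.38 and Xdh, a protein of the milk fat globule, at -0.28. The 9 measured milk genes had a median of 0.19 with 7 above 0.

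Stromal and blood-borne cells gave small medians. Of 10 fibroblast genes the median was 0.05, led by the proteoglycan gene Lum at 0.55, and Col3a1 stood at 0.14. Of 11 endothelial and pericyte genes 8 lay below 0 with a median of -0.18, or 0.033 with quantile normalization over all values; Pecam1 stood at -0.24. The vessel marker Gpihbp1 was the highest of them. Of 13 myeloid genes 10 lay below 0 with a median of -0.18, and their summed level was 17041 units on the virgin array and 15456 on the virgin MNU array. The 12 T and natural killer cell genes had a median of -0.01, and Jchain, of plasma cells, stood at 0.03. Of 6 mast cell and eosinophil genes 4 lay below 0 with a median of -0.16. Hdc, which makes histamine, stood at -0.44 and the mast cell tryptase gene Tpsb2 at 0.14, while Prg2, of eosinophil granules, was below the floor after MNU, at least 1.29-fold lower.

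Markers of neighbouring tissue were examined too. The 9 skeletal muscle genes had a median of 0.05, the highest being Actn3 at 0.34, and 6 nerve genes -0.03. The erythrocyte genes Alas2 and Ahsp stood at 0.20 and 0.11. No skin gene was measured on both virgin arrays, since Krt10 was blank on the virgin MNU array and Ivl did not pass the filter. Of 12 liver genes on the array 9 did not pass the filter, and the other 3 had a median of -0.26, with Apoa1 at -0.37, Fgb at -0.26 and Serpina1 at 0.13.

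Hormone and growth factor genes had few differences. Igfbp3, a carrier of insulin-like growth factors, read 4469.8 units on the virgin array and 2523 on the virgin MNU array, a difference of -0.82, against -0.06 in the parous pair. Igf1 itself was blank on both MNU arrays. Ghr, the growth hormone receptor, stood at 0.31 and Prlr, the prolactin receptor, read 373 and 372 units. Errfi1, an inhibitor of the EGF receptor that its own signal induces, read 1942 and 1283 units, a difference of -0.60, and Areg, a ligand of that receptor, stood at 0.05. Erbb2 stood at -0.23.

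Genes at least 2-fold different outside these lists completed the set. Smoc2, a matrix protein that binds calcium, read 993 units on the virgin array and 2190.4 on the virgin MNU array, 2.21-fold higher. Among the lower genes Or4c52, an olfactory receptor by name, read 501 and 209 units, and Kazn, kazrin, a cell junction protein, 412 and 192. Gnb5, a G protein beta subunit, read 865 and 389.9 units, 2.22-fold lower, but its other feature stood at 0.34. Only Gnb5 and Car5b among the 23 genes had another kept feature. Over the 760 genes with 2 kept features on both arrays, the differences of the 2 features correlated across genes at r = 0.198. Of 18 genes at 1.5-fold in the brighter feature 10 had the same sign in the other. Genes are not independent replicates, and the 2 features share both arrays.

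The parous pair shares no array with the virgin pair and gives each gene a second MNU difference. Of the 21 virgin 2-fold genes with a parous value 13 had the same sign there, against 49.3% of all genes above 0 and 50.4% below. For the lower genes this held for 5 of 5, with a parous median of -0.34, and for the higher genes for 8 of 16, with a parous median of 0.05. The 5 lipid genes at 2-fold were above 0 in both pairs: Elovl6 stood at 0.57, Thrsp at 1.01, Pc at 0.77, Gpd1 at 0.58 and Acly at 0.22 in the parous pair. Other lipid genes were not, with Scd2 at -0.07, Sqle at -0.05, Fabp5 at -0.16 and Acsl1 at -0.17, and 2 of 9 fatty acid synthesis genes lay below 0 there. Thrsp alone was 2-fold higher in both, with 2504 units on the parous array and 5049.8 on the parous MNU array.

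A limma model of parity and MNU over all 4 arrays, with 1 residual degree of freedom a gene, gave the only p-values. It tests the mean of both pairs and not the virgin pair alone. Of 5587 genes with a value on every array, 10 rose (0.179%) and 14 fell (0.251%) after MNU at an adjusted p under 0.05, and 714 had an unadjusted p under 0.05. These counts were 4 and 66 without scaling, 16 and 58 with median centring and 76 and 26 with quantile normalization over all values, and other settings gave from 0 to 111 genes in all. Of the 21 virgin 2-fold genes tested, 7 passed. Thrsp rose by 1.43 ± 0.16 (log2, standard error, limma adjusted p = 0.00629), Pc by 1.20 ± 0.16 (limma adjusted p = 0.0107) and Gpd1 by 0.92 ± 0.15 (limma adjusted p = 0.0261). Car5b rose by 0.82 (limma adjusted p = 0.0239) and Elovl6 by 1.23 (limma adjusted p = 0.0406). Nnat fell by 0.92 (limma adjusted p = 0.0228) and Ccn2 fell by 0.83 (limma adjusted p = 0.0485). Chosen after their values were seen, Pxmp2 and Mtarc1, a mitochondrial reductase, rose by 0.90 and 0.88 (limma adjusted p = 0.00669 for both). Every one of the 7 lost its call under at least 1 alternative; the adjusted p of Thrsp ran from 5.28e-11 to 0.642. No measured gene of mitosis or DNA replication passed. The model gives a larger standard error to a gene whose virgin and parous differences lie apart. For Cdk1, at 1.27 and -0.03, the standard error was 0.215. Differences in the virgin pair alone are therefore poorly tested by it.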

How the data were processed

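Total RNA of the mammary gland was measured on 4 arrays, 1 for each group of 5 rats, and each sample's title gave its group. The authors deposited positive intensity values on a linear scale with 3 significant digits and blanks; how the images were processed, on what platform, and what a blank means is not given in the sources used here. Precision is limited by the number of arrays. Of 20500 features, 12750 carried 1 gene symbol in the platform annotation; 12720 of these were matched by gene identifier to current names in GRCr8, 30 kept the older symbol, 5 features had several symbols and 7745 had none.

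Array medians differed up to 1.33 times, so arrays were quantile normalized on a curve from features valued on all 4 arrays, carried to the others by interpolation. Values were raised to the 40th percentile (176.9 units), kept if 1 array exceeded the 50th (214.9 units), and put on the log2 scale; blanks were never filled in. A gene was its brightest kept feature. This left 6187 genes, of which 5821 had both virgin values and 366 were blank on a virgin array. Of all measured genes, 77 passed through the virgin MNU array alone and 55 through the virgin array alone. The additive model used lmFit and eBayes of limma 3.58.1 in R 4.3.3 with Benjamini-Hochberg adjustment at 0.05. Its prior had 11.3 degrees of freedom and an SD of 0.114, and standard errors had a median of 0.112 (log2). The p-values reflect only how these 4 arrays vary, which may be technical. The residual of a gene in this model is how far its virgin and parous differences lie apart, moderated by the prior. It is not a spread between replicates.

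Named genes were those at least 2-fold different in the virgin pair and up to 4 members of each list by size. Added to them were all measured members of 5 lists (fatty acid synthesis, DNA replication, mitosis, immediate early genes and repair) and a fixed set of markers and hormone genes. Further genes outside this rule are named too, and only some are marked where they occur. Among those not marked are Bhlhe40, C3, Orm1, Cidec, Plin2, Pparg, Col3a1, Mrap and Gpr182. The comparison, its members and the 54 lists were chosen with earlier results of these data known. Promoters came from a RefSeq table of GRCr8. The main steps were also run on simulated data holding known changes. Those data had no blanks, the same changes on both MNU arrays, and changed genes well above the floor. Blanks, values at the floor and differences in the virgin pair alone were thus not covered. Alternatives covered background, scaling, floor, filter, several features per gene, the size of fold and limma's options. Values were computed in Python 3.11.15 with pandas 2.3.3 and figures drawn with matplotlib 3.10.9.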

Additional observations from a re-analysis of the deposited data

Results flagged for a closer look

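In 8 of the 16 genes at least 2-fold higher in the virgin pair that had a parous value, the parous pair had the opposite sign, against 50.4% of all genes below 0 there, and the difference between the pairs was not tested because each group had 1 array. The robust SD of all parous differences was 0.19, and 5 of the 8 parous values given here were smaller than that. The largest was Csn1s2a, an alpha-S2 casein, at 1.47 in the virgin and -0.53 in the parous pair. Of the cell division genes, Cdk1 stood at 1.27 against -0.03, Cks2 at 1.22 against -0.27, Ube2c at 1.20 against -0.21 and Mki67 at 1.18 against -0.12. Cdkn3 stood at 1.14 against -0.14. Uhrf1, which passed the filter through the virgin MNU array alone, stood at 1.09 against -0.03. Smoc2, a matrix protein, stood at 1.14 against -0.09.

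Features outside the comparison of named genes were counted too. Of 3807 kept features without a gene symbol, 5 were higher on the virgin MNU array by 2-fold or more, and 5 were lower by as much. Among the 5821 named genes these counts were 17 (0.292%) and 6 (0.103%). The highest stood at 1.81, with 266 units on the virgin array and 929.8 on the virgin MNU array, against 347 on both parous arrays. The lowest stood at -1.46, with 609 units on the virgin array and 221 on the virgin MNU array. A further 196 features had a value on the virgin MNU array and a blank on the virgin array, and 472 had the reverse.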

How the results depend on the processing

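Each of the 23 genes at least 2-fold different kept that size under 7 of 12 other settings: median centring, both curves fitted on the virgin arrays alone, background subtraction, both other floors and no filter. With quantile normalization over all values 22 did, with the mean of the features 21, without scaling 20, with a local median removed 19, and under a stricter filter 20 of the 20 measured. The mean of the features leaves out a feature that is blank on any array, so Gnb5 was then its other feature alone, at 0.34. The count of 17 higher became 32 with the 1st percentile subtracted, 79 at 1.5-fold and 3 at 3-fold; the count of 6 lower became 25, 54 and 0, and the total of 23 became 57, 133 and 3. Without scaling the split was 14 higher and 9 lower, and the median of all genes moved to -0.10, with 29.4% above 0; with quantile normalization over all values it was 0.07, with 63.8% above 0.

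The limma count of 24 depended most on settings. It was 70 without scaling (4 higher, 66 lower), 74 with median centring (16 and 58), 102 with quantile normalization over all values (76 and 26) and 111 with a stricter filter. It was 12 with background subtracted, 11 with a lower floor, 8 with no floor, 6 with a robust prior, 5 with each feature on its own and 3 with the mean of the features. By limma it was 0 with a local median removed, where 454 genes had an unadjusted p under 0.05, and 0 with no filter, where 831 did; the cause was not tested. Named genes that lost their limma call under an alternative kept their direction.

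List medians moved with the filter on low values, whose removal adds dim genes at the floor. With no filter the median was 0.12 for fatty acid synthesis, 0.25 for mitosis, -0.11 for the circadian clock and 0.00 for the EGF receptor family and for liver genes. With a stricter filter it was 1.16 for fatty acid synthesis, 0.26 for lipolysis, -0.27 for TGF-beta targets, 0.26 for T and natural killer cells and 0.13 for liver genes. With quantile normalization over all values it was 0.033 for endothelium, 0.20 for the growth hormone axis and 0.22 for ribosomal proteins. No paired analysis was possible because each group had 1 array and no replicate number links samples, although the limma model itself compares MNU within each parity. Leaving out an array was likewise not possible within the pair. A dim gene has only a bound, bright genes are often blank after MNU, and the second features of genes correlated weakly with the first.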

Other observations

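Groups not described above include protein turnover and stress defence. Of 21 measured proteasome genes 17 lay above 0 in the virgin pair, with a median of 0.16 against -0.02 in the parous pair. None was at 1.5-fold in its brightest feature. Psmb2 stood at 0.13 in that feature and 0.73 in its other one, and Psmd2 at 0.16 and -0.22. Psmd8, of the regulatory particle, stood at 0.49, Psmc2, one of its ATPases, at 0.41, and Psmb3, of the core, at 0.36. Pomp, which helps to assemble that core, read 2219 units on the virgin array and 4525 on the virgin MNU array. It read 4706 on the parous array and was blank on the parous MNU array. Cytosolic ribosomal proteins had a median of 0.01 over 16 measured members, 8 of them above 0 and 8 below, and 16 others were blank on every array. Translation factors had a median of -0.01 over 11 genes, with Eif5 lowest at -0.44.

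Stress genes had medians near 0. Of 15 heat shock and chaperone genes the median was -0.03, from Hspa1a, an inducible chaperone, at -0.41 to Hspd1, a chaperonin of mitochondria, at 0.39. Of 13 genes of the unfolded protein response the median was 0.01, with Herpud1 lowest at -0.53. Oxidative defence had a median of 0.09 over 16 genes, with Prdx3, the mitochondrial peroxiredoxin, at 0.56, Cat, catalase, at 0.45, and the secreted peroxidase Gpx3 at -0.58. Glutathione transferases and cytochromes P450 had a median of 0.04, with Gsta3 at 0.40 and Sult1a1 at -0.34. Of the Ras pathway, whose Hras gene is a known target of mutation in rat mammary tumours induced by MNU, Hras stood at -0.38 and Braf at -0.49, and 13 genes had a median of -0.02. Interferon response genes had a median of -0.01 over 13 genes, and antigen presentation genes 0.09 over 7. Wnt signalling genes had a median of 0.18 over 7 measured members, with Wnt5b at 0.26 and Lrp6, a coreceptor, at -0.26.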
